A study of Mus musculus with 12 samples.

Results

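The Ly6 surface antigen genes of mouse chromosome 15 were followed in CD4+ T cells that lacked or carried the repressor Bach2. The cluster comprised 7 of the 23700 loci in the expression files, taken by their symbols: Ly6a, Ly6i, Ly6c1, Ly6c2, Ly6e, Ly6k and Ly6d. These 7 were chosen by their measured Bach2KO and WT values, in that the differences of Ly6a, Ly6i, Ly6c1 and Ly6d were already known when the cluster was picked, so that contrast is given for them as a description with no test. All Bach2 peaks within 50 kb of a locus were taken with them, 11 of 22494 in the deposited list.

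Bach2KO induced regulatory (iTreg) cultures gave 3 RNA libraries and WT iTreg cultures another 3. Th1, Th2, Th17 and freshly isolated naive CD4+ T cells, all wild type, gave 1 each. All mice were C57BL/6J, and cells came from spleen and lymph nodes, sorted as CD4+CD44-CD25-CD62L+. Cultures lasted 3 days on anti-CD3 and anti-CD28 (10 μg/ml each). The iTreg cultures of both genotypes received 100 IU/ml IL-2 with 5 ng/ml human TGF-β1, and no neutralizing antibody is listed for them. Th1 cultures received 20 ng/ml IL-12 with anti-IL-4, Th2 cultures 20 ng/ml IL-4 with anti-IFN-γ, and Th17 cultures 20 ng/ml IL-6, 2 ng/ml TGF-β1 and both antibodies (10 μg/ml of each antibody). Bach2 binding was measured in 1 chromatin immunoprecipitation (ChIP) library of WT iTreg cells, with a rabbit antibody made in house and an input lysate beside it. The labels give neither the ages of the mice nor how the Bach2KO allele was made, and do not say whether replicates were separate animals or cultures, so spreads and p-values refer to these samples only.

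Ly6 proteins are small surface proteins with the three-finger fold of the uPAR family, and most are held in the membrane by a glycosylphosphatidylinositol (GPI) anchor. Ly6a encodes Sca-1, used to mark blood stem cells and found on activated and memory T cells. Ly6c1 and Ly6c2 encode the Ly6C antigen of monocytes and memory T cells. Several of these genes are known to be induced by interferons. Bach2 is a repressor that pairs with small Maf proteins and binds sites related to the AP-1 motif TGAGTCA.

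Levels are in FPKM, fragments scaled by transcript length and by the number of mapped fragments. Reads implied by the deposited bounds came to between 20.1 M and 24.0 M per Bach2KO library, 18.2 M and 19.1 M per WT iTreg library, and 12.4 M and 18.5 M in the single ones, over loci with 1 start. Summed FPKM lay between 545183 and 553892 in Bach2KO and between 432450 and 437849 in WT libraries. Bach2 itself was at 3.81 ± 0.378 FPKM in Bach2KO and 17.6 ± 0.351 FPKM in WT iTreg cells (SD, n = 3 each). The 6 T cell markers were all above 1 FPKM in all 10 libraries. Foxp3, the Treg factor, was at 7.68, 19.7 and 5.81 FPKM in Bach2KO and at 69.6, 66.7 and 81.1 FPKM in WT iTreg libraries. Tbx21, the Th1 factor, was at 11.3, 14.7 and 9.18 FPKM in Bach2KO and at 0.148, 0.0412 and 0.131 FPKM in WT iTreg libraries, against 35.5 FPKM in the Th1 library. The part of these lineage shifts in the Ly6 values was not tested.

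In mm9, the genome build of the files, the 7 loci lie in the order Ly6d, Ly6k, Ly6e, Ly6i, Ly6a, Ly6c1 and Ly6c2. Ly6d is at chr15:74592486-74593997 and Ly6k at chr15:74627304-74630398. Ly6e is at chr15:74785481-74790335, 155082 bp beyond Ly6k, and is the only member on the plus strand. Ly6i (chr15:74810242-74813860) and Ly6a (chr15:74825307-74828318) are neighbours with 11446 bp between them. Ly6c1 is at chr15:74874448-74879267 and Ly6c2 at chr15:74938591-74942379. Within this span and 50 kb to each side the files list 12 other loci, of which 10 never passed 1 FPKM in any library.

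The promoter windows of Ly6a and Ly6c1 are shown because they share 1 unbroken run. Both were read from mm9, on the minus strand, from 250 bases before to 50 bases after the 5′ end of the locus in the files. Capitals mark the run of 257 bases that is identical in both. It begins with the Ly6a window and ends with the Ly6c1 window, so its extent beyond the windows was not measured.

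Ly6a promoter, chr15:74828269-74828568: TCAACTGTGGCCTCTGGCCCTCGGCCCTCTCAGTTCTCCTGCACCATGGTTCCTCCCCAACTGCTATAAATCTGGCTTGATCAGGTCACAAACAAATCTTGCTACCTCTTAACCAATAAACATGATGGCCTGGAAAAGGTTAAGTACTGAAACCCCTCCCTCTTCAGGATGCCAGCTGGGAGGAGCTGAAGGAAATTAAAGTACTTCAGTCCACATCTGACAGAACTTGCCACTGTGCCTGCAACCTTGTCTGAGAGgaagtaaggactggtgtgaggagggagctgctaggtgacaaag

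Ly6c1 promoter, chr15:74879218-74879517: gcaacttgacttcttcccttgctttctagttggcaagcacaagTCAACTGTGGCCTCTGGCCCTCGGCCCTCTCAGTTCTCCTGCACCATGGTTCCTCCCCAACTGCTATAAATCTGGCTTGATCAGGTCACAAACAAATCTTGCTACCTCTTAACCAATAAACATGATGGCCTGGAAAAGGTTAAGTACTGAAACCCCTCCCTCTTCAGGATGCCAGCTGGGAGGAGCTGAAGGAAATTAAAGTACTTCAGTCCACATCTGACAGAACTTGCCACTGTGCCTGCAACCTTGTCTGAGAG

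The other promoters were less alike. Ly6i and Ly6c2 matched at 180 of 210 aligned positions (85.7%), and Ly6a and Ly6c2 at 230 of 300 (76.7%). Ly6d, Ly6k and Ly6e gave alignments of at most 67 positions with any member. Of the 3 motifs searched on both strands, the AP-1 site TGAGTCA was in none of the 7 windows and in 4.45% of 21386 promoters of that length. The interferon response core GAAANNGAA was also in none, against 8.14% of promoters. The STAT motif TTCNNNGAA was in the Ly6k window alone, 150 bases before the 5′ end, and in 7.96% of promoters. Only the window at the outermost 5′ end of each locus was searched, though the files list 3 starts for Ly6e and 2 for Ly6c1. A window without these letters says nothing about the factors.

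The transcripts of the cluster are alike too, which bears on the counting of reads, since only unique 50-base reads were used per the labels. All 50-base exon windows of Ly6d, Ly6k and Ly6e occurred once in the genome. The share was 88.4% for Ly6i, 87.2% for Ly6a, 69.4% for Ly6c1 and 69.0% for Ly6c2. Ly6c1 and Ly6c2 shared 198 such windows with each other, so their separate levels are less certain than those of the others.

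Ly6a had the highest FPKM of the cluster in Bach2KO iTreg cells, at 1466, 1732 and 1479 FPKM. In WT iTreg cells it was at 18.3, 14.4 and 15.0 FPKM. The groups lie far apart: every Bach2KO library was above the 680 FPKM of the Th1 library, and every WT iTreg library was below the 53.8 FPKM of the naive library. The mean was 1559 ± 150.1 FPKM in Bach2KO and 15.9 ± 2.08 FPKM in WT cells (SD, n = 3 each), 98-fold higher in Bach2KO. On the log2(FPKM + 0.5) scale the difference was 6.57 (SE 0.11), the 7th largest rise of 11403 loci with a mean of at least 0.5 FPKM. Ly6a ranked between 25 and 35 among all loci by FPKM in Bach2KO libraries and between 3947 and 4715 in WT iTreg libraries. Th17 cells had 317 FPKM and Th2 cells 8.62 FPKM. The order was therefore Bach2KO iTreg, Th1, Th17, naive, WT iTreg and Th2, and no deposited bounds of neighbours in that order overlapped. In bulk RNA, more cells with the transcript and more transcript per cell cannot be told apart.

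**Figure D1:**
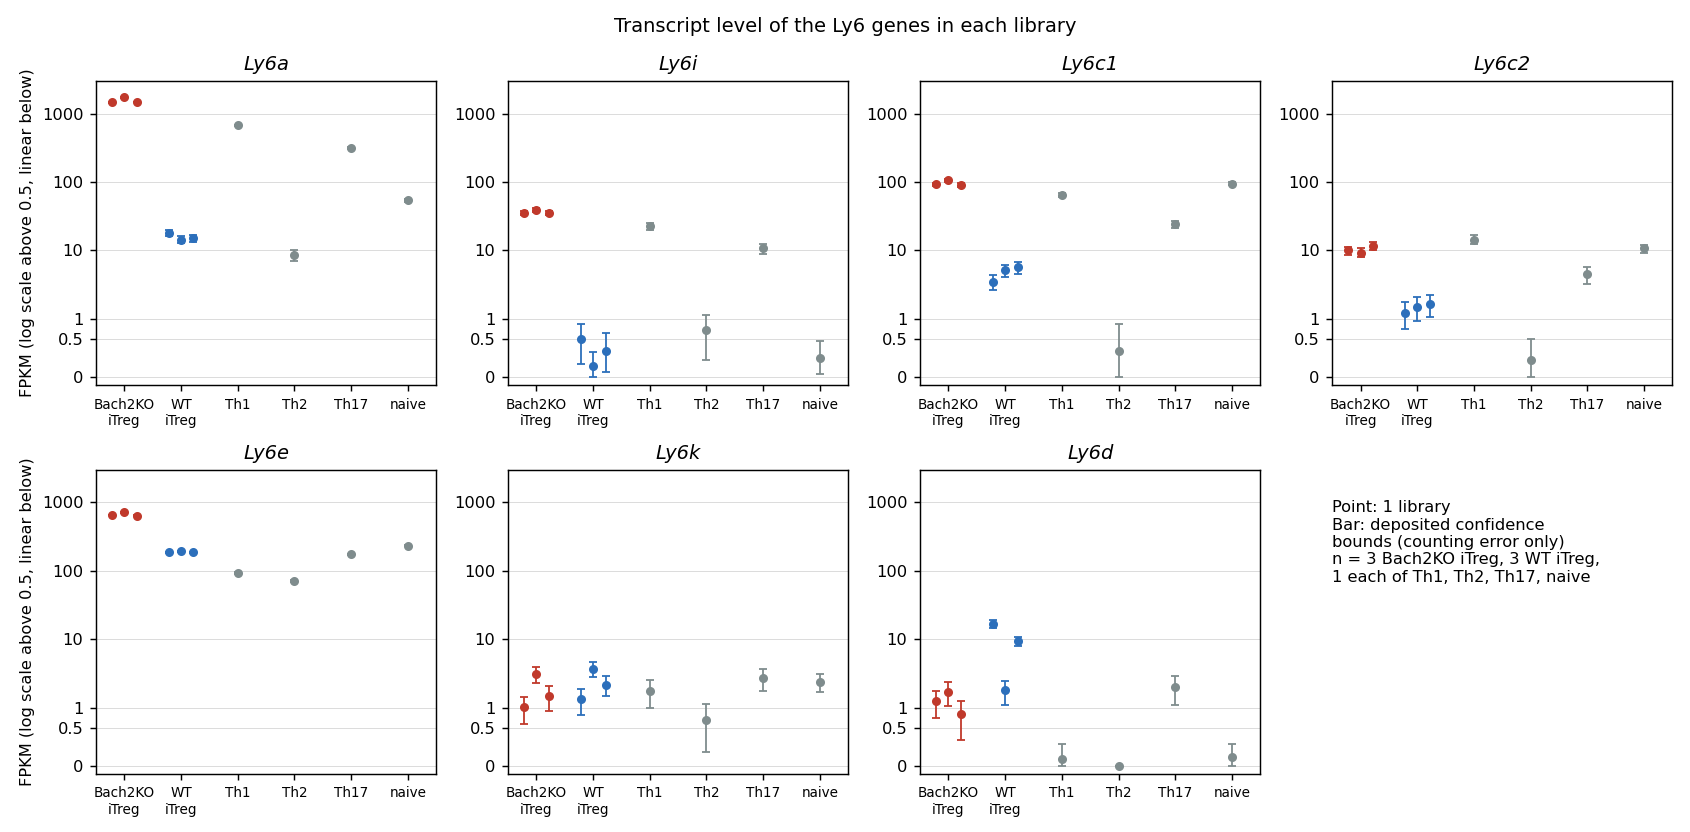
FPKM of each Ly6 gene in each library, on an axis that is logarithmic above 0.5 and linear below. Each point is 1 library, with the deposited confidence bounds as bars. The Bach2KO points stand above the WT iTreg points for Ly6a, Ly6i, Ly6c1, Ly6c2 and Ly6e, mix with them for Ly6k and lie below them for Ly6d.

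Ly6i, the neighbour of Ly6a, was near the detection limit in WT iTreg cells. It was at 35.8, 39.3 and 35.7 FPKM in Bach2KO libraries and at 0.504, 0.150 and 0.352 FPKM in WT libraries. The WT values rest on 10, 2 and 7 implied reads, against 885, 865 and 738 in Bach2KO. The fold is therefore uncertain: the log2 difference was 5.51 (SE 0.161) with 0.5 added to each value, 6.50 with 0.1 added and 4.84 with 1 added. Ly6i passed the filter on low values through its Bach2KO libraries, and the other 6 members had a mean of at least 0.5 FPKM in WT as well. Th1 cells had 22.5 FPKM and Th17 cells 10.8 FPKM. The Th2 (0.690 FPKM), WT iTreg and naive (0.262 FPKM) levels had overlapping bounds and no clear order. Between Bach2KO iTreg, Th1 and Th17 cells, Ly6i and Ly6a kept the same order, with Ly6a from 29.4 to 44.1 times as high as Ly6i. In naive cells that ratio was 205, since Ly6a was expressed there and Ly6i rested on 6 implied reads.

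Ly6c1 was at 92.5, 105 and 91.2 FPKM in Bach2KO and at 3.51, 5.15 and 5.65 FPKM in WT iTreg libraries. All Bach2KO values were above all WT values, and the mean was 20.2-fold higher in Bach2KO (log2 difference 4.22, SE 0.167). The naive library, at 94.8 FPKM, lay within the Bach2KO range, so the knockout level did not differ from the naive one beyond its spread. Th1 cells had 64.5 FPKM and Th17 cells 24.2 FPKM. Th2 cells had 0.345 FPKM, below every WT iTreg library.

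Ly6c2, the close copy of Ly6c1, was at 10.1, 9.29 and 11.8 FPKM in Bach2KO and at 1.24, 1.51 and 1.65 FPKM in WT iTreg libraries. The groups did not overlap, and the mean was 7.07-fold higher in Bach2KO (log2 difference 2.47, SE 0.119). The naive library (10.8 FPKM) again lay within the Bach2KO range. Th1 cells had the highest value, 14.4 FPKM, but its bounds of 12.3 and 16.6 overlapped those of Bach2KO library 3 (10.2 and 13.4). Th17 cells had 4.48 FPKM and Th2 cells 0.233 FPKM on 3 implied reads. Ly6c1 was between 7.73 and 11.3 times as high as Ly6c2 in Bach2KO libraries and between 2.83 and 3.42 times in WT iTreg libraries. The ratio was 8.81 in naive, 4.47 in Th1 and 5.40 in Th17 cells. The windows shared by the pair were counted for neither gene if only unique reads were kept, and their part in this ratio was not tested.

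Monocyte and neutrophil markers are given here because those cells carry Ly6C. The 9 listed markers found in the files summed to between 0.304 and 0.684 FPKM in Bach2KO and between 6.91 and 7.97 FPKM in WT iTreg libraries. Itgam and Fcgr3 gave nearly all of this in WT iTreg libraries and most of it in Bach2KO libraries. Itgam was at 0.189, 0.117 and 0.124 FPKM in Bach2KO and at 3.86, 4.20 and 3.03 FPKM in WT libraries. Fcgr3 was at 0.285, 0.161 and 0.200 FPKM in Bach2KO and at 3.33, 3.76 and 3.86 FPKM in WT libraries. The other markers in the files were at most 0.172 FPKM in any library. S100a8, a defining marker, was at 0 in all 10 libraries. Of 6 markers listed for CD8, NK and gamma-delta T cells, 5 were in the files, and the gamma-delta marker Tcrg-C1 was not. The 5 found summed to between 11.9 and 16.8 FPKM in Bach2KO and between 4.60 and 5.46 FPKM in WT libraries. Cd8b1 was at 9.75, 8.84 and 8.98 FPKM in Bach2KO and at 4.36, 5.32 and 5.05 FPKM in WT libraries. Naive cells, with 9.28 FPKM of Cd8b1, lay within its Bach2KO range. Th17 cells had 4.83 FPKM of it, Th1 cells 6.73 FPKM and Th2 cells 7.39 FPKM. Cd8a was at 2.30, 2.30 and 2.09 FPKM in Bach2KO and at 0.0999, 0.0802 and 0.0974 FPKM in WT libraries. Gzma was at 4.24, 0.726 and 5.75 FPKM in Bach2KO and at 0.0939, 0 and 0 FPKM in WT libraries. The highest values beyond the iTreg libraries were 0.102 FPKM for Cd8a and 0.262 FPKM for Gzma, both in naive cells. The NK markers Ncr1 and Klrb1c were under 0.1 FPKM in all 6 iTreg libraries, with Ncr1 at 0 in the Bach2KO ones. Their part in the rise of Ly6a and Ly6c transcripts was not tested.

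Ly6e was the member with the highest level in WT iTreg cells. Its product is a GPI-linked protein found on immature thymocytes and in many other tissues. It was at 656, 712 and 636 FPKM in Bach2KO and at 185, 193 and 187 FPKM in WT libraries. The groups did not overlap, and the Bach2KO mean of 668 ± 39.7 FPKM was 3.54 times the WT mean of 189 ± 3.98 FPKM (SD, n = 3 each). The log2 difference was 1.82 (SE 0.0549) with the authors' scaling and 1.44 after quantile normalization. Naive cells had 231 FPKM and Th17 cells 174 FPKM, on either side of the WT iTreg libraries. Th1 (93.3 FPKM) and Th2 (70.6 FPKM) cells were lower. Unlike Ly6a, Ly6e was therefore lower in Th1 than in naive and Th17 cells.

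Together the 7 members came to between 2256 and 2603 FPKM in Bach2KO and between 220 and 227 FPKM in WT iTreg libraries. Ly6a made up 64.8 to 66.5% of that sum in Bach2KO and 6.56 to 8.06% in WT libraries. Ly6e made up 27.4 to 29.0% in Bach2KO and 81.7 to 87.8% in WT libraries. The composition of the Bach2KO libraries was thus led by Ly6a, as in Th1 (77.6%) and Th17 (59.2%) cells, and that of the WT iTreg libraries by Ly6e, as in Th2 (87.0%) and naive (58.8%) cells. Naive cells stood apart through Ly6c1, at 24.1% of their sum.

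**Figure D2:**
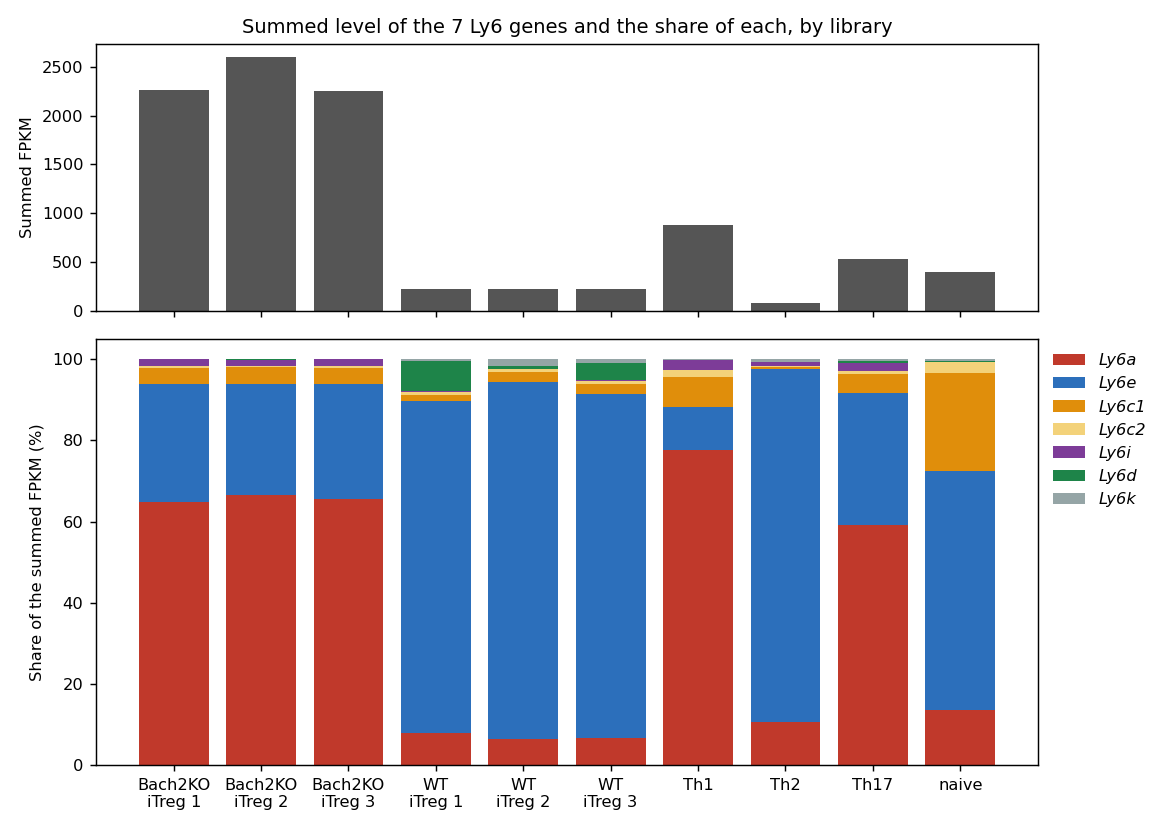
Summed FPKM of the 7 Ly6 genes in each library (upper bars) and the percentage of that sum from each gene (lower bars). Ly6a takes 64.8 to 66.5% in the 3 Bach2KO libraries, against 6.56 to 8.06% in the 3 WT iTreg libraries, where Ly6e takes most of the sum.

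Ly6k and Ly6d did not share the pattern of the other members. Ly6k, best known in mice for its part in sperm function, was at 1.01, 3.06 and 1.49 FPKM in Bach2KO and at 1.33, 3.68 and 2.17 FPKM in WT iTreg libraries. The groups overlapped, with a log2 difference of -0.31 (SE 0.415). The library numbered 2 was the highest and the one numbered 1 the lowest in both genotypes, and at each number the Bach2KO value was the lower. Th17 (2.71 FPKM), naive (2.38 FPKM) and Th1 (1.74 FPKM) cells lay within the iTreg range, and Th2 cells were at 0.652 FPKM.

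Ly6d, known as a marker of lymphoid progenitors committed to the B cell lineage, was at 1.23, 1.70 and 0.803 FPKM in Bach2KO and at 16.8, 1.79 and 9.37 FPKM in WT iTreg libraries. All Bach2KO values were below all WT values, but WT library 2 stood only just above Bach2KO library 2. The log2 difference was -2.10 (SE 0.733), and it was -1.48 without WT library 1, -2.94 without WT library 2 and -1.88 without WT library 3. Th17 cells had 2.00 FPKM on 19 implied reads. The gene was at 0.121 FPKM in naive and 0.0967 FPKM in Th1 cells, and was listed at 0 in Th2 cells. The 7 B cell markers, among them Cd79a and Ms4a1, summed to 18.0, 11.3 and 17.6 FPKM in Bach2KO and to 38.5, 9.01 and 22.5 FPKM in WT iTreg libraries 1 to 3. They reached at least 1 FPKM for 3, 2 and 3 of 7 markers in Bach2KO and for 6, 2 and 3 of 7 in WT libraries, and none was at 0. The order of the WT libraries was the same for Ly6d and for the B cell sum. In Bach2KO it was not: library 2 had the highest Ly6d value and the lowest B cell sum. Bach2KO libraries 1 and 3 also had higher B cell sums than WT library 2 and lower Ly6d values. These Ly6d values rest on 22, 27 and 12 implied reads in Bach2KO libraries 1 to 3 and 27 in WT library 2. Their deposited bounds all overlapped, so the order of Ly6d among these libraries is within counting error. The largest gap in B cell markers was in Cd79b, at 10.2 and 10.4 FPKM in Bach2KO libraries 1 and 3 and 2.69 FPKM in WT library 2. Cd79a (4.25 and 4.32 against 4.65 FPKM) and Pax5 (0.271 and 0.162 against 0.321 FPKM) were lower there, and the other B cell markers were higher. Outside the iTreg libraries the B cell sum lay between 1.03 and 2.25 FPKM, in Th17 cells at 1.52 FPKM. The 8 dendritic cell markers, which include class II genes that B cells also express, summed to 175, 150 and 156 FPKM in Bach2KO and to 218, 26.5 and 107 FPKM in WT iTreg libraries. Cd74 made up most of that sum in every iTreg library. Outside the iTreg libraries the dendritic cell sum was 206 FPKM in Th2, 135 in Th1, 18.7 in Th17 and 2.42 FPKM in naive cells. The 5 plasma cell markers summed to between 243 and 266 FPKM in Bach2KO and between 31.4 and 37.3 FPKM in WT libraries, nearly all from Xbp1 and Irf4, which activated T cells also express. The part of these cells in the Ly6d values was not tested.

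Of the 7 members, 5 had all Bach2KO values above all WT values, as did 43.4% of the 11403 loci tested, and 1 had all below, as did 35.9%. Over all loci, limma called 74.6% different at an adjusted p of 0.05 and 41.1% higher in Bach2KO (p-values two-sided, adjusted by Benjamini-Hochberg). Since the members were picked with this contrast known, nothing is read from their count. Other scalings moved the split over all loci: the authors' scaling gave 4682 loci higher and 3828 lower. Quantile normalization gave 3685 higher against 4859 lower, and scaling to equal sums 3249 higher against 5392 lower. The median log2 difference of all loci was 0.07, -0.09 and -0.18 under these 3 scalings. The sign of each member's difference was the same under all of them.

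Among other Ly6 and uPAR family genes, few were expressed. Of 34 listed, 31 were in the files and 3 passed the filter. Ly6g5b, a family gene of the major histocompatibility complex on another chromosome, rose to 15.9 ± 0.632 FPKM in Bach2KO, against 1.65 ± 0.442 FPKM in WT iTreg cells (log2 difference 2.95, SE 0.143, limma adjusted p = 1.2e-05, SD over n = 3 each). Lypd6b fell to 0.938 FPKM in Bach2KO, against 3.52 FPKM in WT cells (log2 difference -1.53, limma adjusted p = 0.0014). Lynx1, a modulator of nicotinic receptors that lies beside Ly6d, was at 2.17 FPKM in Bach2KO and 2.38 FPKM in WT cells and was not called (limma adjusted p = 0.53). The nearby family genes Slurp1, Lypd2, Psca and Gml were under 0.2 FPKM in all 10 libraries.

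Interferon-related genes were listed because several Ly6 genes respond to interferons. Of 37 tested genes, 27 rose in Bach2KO cells (73.0%, against 41.1% of all loci), 4 fell and 6 were not called. The median log2 difference was 1.44, against 0.07 over all loci. Of those that rose, Ifng, Ifitm1, Ifitm3 and Oas3 had WT means of 0.0310, 0.230, 0.242 and 0.386 FPKM. They passed the filter on low values only through their Bach2KO libraries, which favours a call of higher. They remain in the 27 and in the median. Without the filter, 30 of the 44 listed genes were higher (68.2%, against 28.35% of all loci) and 4 lower. The median log2 difference of the list was then 1.09. Oas3, an antiviral synthetase, was at 8.82 ± 0.535 FPKM in Bach2KO and 0.386 ± 0.0624 FPKM in WT iTreg cells (log2 difference 3.40, limma adjusted p = 1.7e-06). Socs1, an inhibitor of cytokine signalling, was at 161 FPKM in Bach2KO and 15.5 FPKM in WT cells (3.33, limma adjusted p = 2.3e-06). Ifitm2, an antiviral membrane protein, was at 30.9 FPKM in Bach2KO and 2.73 FPKM in WT cells (3.29, limma adjusted p = 3.9e-06). The immunoproteasome subunit Psmb9 was at 329 FPKM in Bach2KO and 93.6 FPKM in WT cells (1.81, limma adjusted p = 4.3e-06). Irf7 was at 13.9 FPKM in Bach2KO and 13.7 FPKM in WT cells and was not called (limma adjusted p = 0.94), and neither were Xaf1 and Ifit3. The 4 that fell were Ifit2, Ifnar1, Ifngr2 and Usp18. Isg15 and Ifit1 were not called either (limma adjusted p = 0.92 and 0.086), while Stat2, Bst2, Isg20 and Irf9 were called higher. Of the 44 listed genes, 7 had 6-library means under 0.5 FPKM and were not tested with the filter. They were Ifi44, Mx1, Mx2, Oas2, Oasl1, Oasl2 and Rsad2. Ifng, which encodes IFN-γ, varied widely between Bach2KO libraries, at 10.6, 22.8 and 3.99 FPKM, against 0.0315, 0 and 0.0615 FPKM in WT libraries (limma adjusted p = 0.00068).

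Genes listed for the GPI anchor were called in both directions, 65.5% of those tested against 74.6% of all loci. Of 29 tested, 10 fell in Bach2KO cells (34.5%, against 33.6% of all loci), 9 rose (31.0%, against 41.1%) and 10 did not pass the test. Their median log2 difference was 0.06, against 0.07 over all loci. The split depended on scaling: quantile normalization gave 13 lower and 5 higher, and equal sums gave 16 lower and 4 higher. The median then turned negative, to -0.15 and -0.20. Pigu, a subunit of the GPI transamidase, was at 19.0 FPKM in Bach2KO and 10.0 FPKM in WT cells (log2 difference 0.89, limma adjusted p = 2.4e-05). Pigf, which acts in the assembly of the anchor, was at 12.2 FPKM in Bach2KO and 4.52 FPKM in WT cells (1.34, limma adjusted p = 3e-05). Pigp fell to 16.4 FPKM in Bach2KO, against 33.6 FPKM in WT cells (limma adjusted p = 2.5e-05). Pgap1, which remodels the anchor lipid, fell to 1.13 FPKM in Bach2KO, against 3.28 FPKM in WT cells (limma adjusted p = 3.1e-05). Pigx, Pigt and Pigq, the most expressed of those not called, differed by at most 0.08 on the log2 scale.

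**Figure D3:**
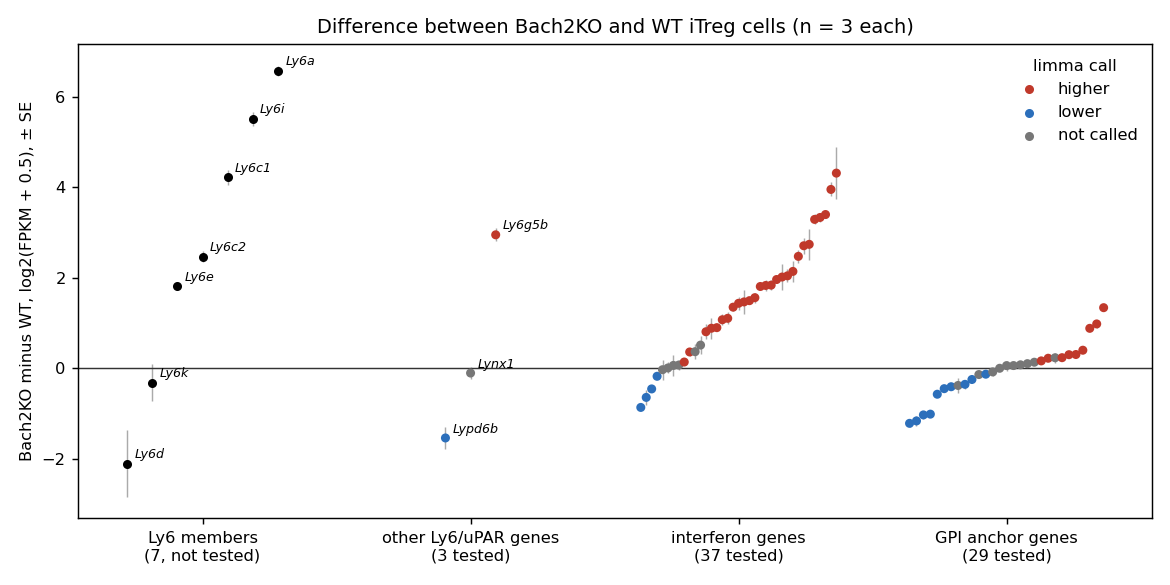
Difference between Bach2KO and WT iTreg cells (n = 3 each) on log2(FPKM + 0.5), with SE, for the 7 Ly6 genes and for the tested genes of the 3 lists. Black points are the Ly6 genes, for which no test is given. Most interferon genes lie above 0 (27 of 37 called higher), while GPI anchor genes lie on both sides (9 higher, 10 lower).

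Bach2 peaks were found within 50 kb of every member. The 11 peaks were divided as 7 near Ly6e, 5 near Ly6i, 4 near Ly6a, 2 each near Ly6d and Ly6c2 and 1 each near Ly6k and Ly6c1, with several counted for more than 1 gene. A peak within 50 kb is common, since 84.5% of the 11403 loci tested had at least 1, with a median of 2. The 1 peak counted for Ly6c1 lay 48149 bp from it, just inside the limit, and the next lay 51848 bp away, just outside. Tags, fold enrichment and false discovery rate (FDR) of each peak are the authors' values from 1 library.

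The peak between Ly6i and Ly6a was the strongest of the 11. It spans chr15:74819591-74820559, starts 5731 bp beyond the 5′ end of Ly6i and ends 4748 bp short of the 3′ end of Ly6a. It held 110 tags at 53.9-fold enrichment with an FDR of 0.13%, rank 785 of 22494 peaks by fold. Over the whole list the median peak held 29 tags at 12.8-fold. The 300 bases around its summit are shown because they carry both motifs discussed here, in capitals: TGAGTCA starting 135 bases before the summit, and overlapping copies of GAAANNGAA from 5 bases before it.

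Peak between Ly6i and Ly6a, plus strand, chr15:74819797-74820096: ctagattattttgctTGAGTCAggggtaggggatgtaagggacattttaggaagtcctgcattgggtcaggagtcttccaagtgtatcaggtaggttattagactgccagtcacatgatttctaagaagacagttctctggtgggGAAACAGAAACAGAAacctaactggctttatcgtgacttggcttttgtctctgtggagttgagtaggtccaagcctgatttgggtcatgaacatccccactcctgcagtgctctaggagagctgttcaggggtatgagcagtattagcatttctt

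TGAGTCA was in such a window of 4 of the 11 peaks and of 40.9% of all peaks. GAAANNGAA, searched in peaks only after the bases above had been read, was in 1 of the 11 and in 11.8% of all peaks. Among the 975 peaks of at least 50-fold enrichment the shares were 61.5% for TGAGTCA and 13.7% for GAAANNGAA.

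A weaker peak lay inside Ly6a, in an intron (chr15:74825872-74826299, 20 tags, 9.20-fold, FDR 1.74%). Its summit is 2247 bp downstream of the 5′ end of the locus. It is shown because its window has 2 AP-1 sites on the minus strand, written in capitals as TGACTCA. The one 28 bases before the summit is preceded on its own strand by GC, as in a Maf half-site (GCTGAGTCA). That longer motif was in 2 of the 11 peaks and in 11.9% of all peaks.

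Peak in the Ly6a intron, plus strand, chr15:74825921-74826220: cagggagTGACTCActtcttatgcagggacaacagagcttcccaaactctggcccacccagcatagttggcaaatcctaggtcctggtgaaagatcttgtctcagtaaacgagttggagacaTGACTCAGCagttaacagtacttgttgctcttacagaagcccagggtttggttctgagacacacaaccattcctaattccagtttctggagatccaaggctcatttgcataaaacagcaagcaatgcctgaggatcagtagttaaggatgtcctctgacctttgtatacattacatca

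A pair of the peaks are copies of each other by sequence. One lies 2707 bp beyond the 3′ end of Ly6a (chr15:74822251-74822600, 15 tags, 12.0-fold) and the other 5197 bp upstream of Ly6c2 (chr15:74947576-74948216, 24 tags, 19.2-fold). Their windows were identical at 242 of 265 aligned positions (91.3%), against 40 of 61 for the next best pair of peaks. They are shown with the bases that differ inside the alignment in capitals.

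Peak downstream of Ly6a, plus strand, chr15:74822233-74822532: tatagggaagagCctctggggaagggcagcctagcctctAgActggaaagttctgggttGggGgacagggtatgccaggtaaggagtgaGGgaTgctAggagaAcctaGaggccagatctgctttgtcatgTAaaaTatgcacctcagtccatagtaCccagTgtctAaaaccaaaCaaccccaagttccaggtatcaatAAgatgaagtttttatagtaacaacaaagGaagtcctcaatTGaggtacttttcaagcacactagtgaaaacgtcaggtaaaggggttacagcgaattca

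Peak upstream of Ly6c2, plus strand, chr15:74947714-74948013: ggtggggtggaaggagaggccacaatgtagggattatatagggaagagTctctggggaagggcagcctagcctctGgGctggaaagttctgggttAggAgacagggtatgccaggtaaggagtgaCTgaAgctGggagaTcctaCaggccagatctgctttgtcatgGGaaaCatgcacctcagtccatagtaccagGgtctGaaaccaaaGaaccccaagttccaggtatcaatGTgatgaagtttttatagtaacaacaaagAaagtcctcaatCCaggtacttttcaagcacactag

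Neither window has TGAGTCA, though each whole peak has 1. The 7 other peaks had between 13 and 77 tags at 5.60-fold to 15.5-fold. The nearest to Ly6e lay 2662 bp beyond its 3′ end (27 tags, 15.5-fold), and the nearest to Ly6d 2273 bp upstream (19 tags, 9.95-fold).

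**Figure D4:**
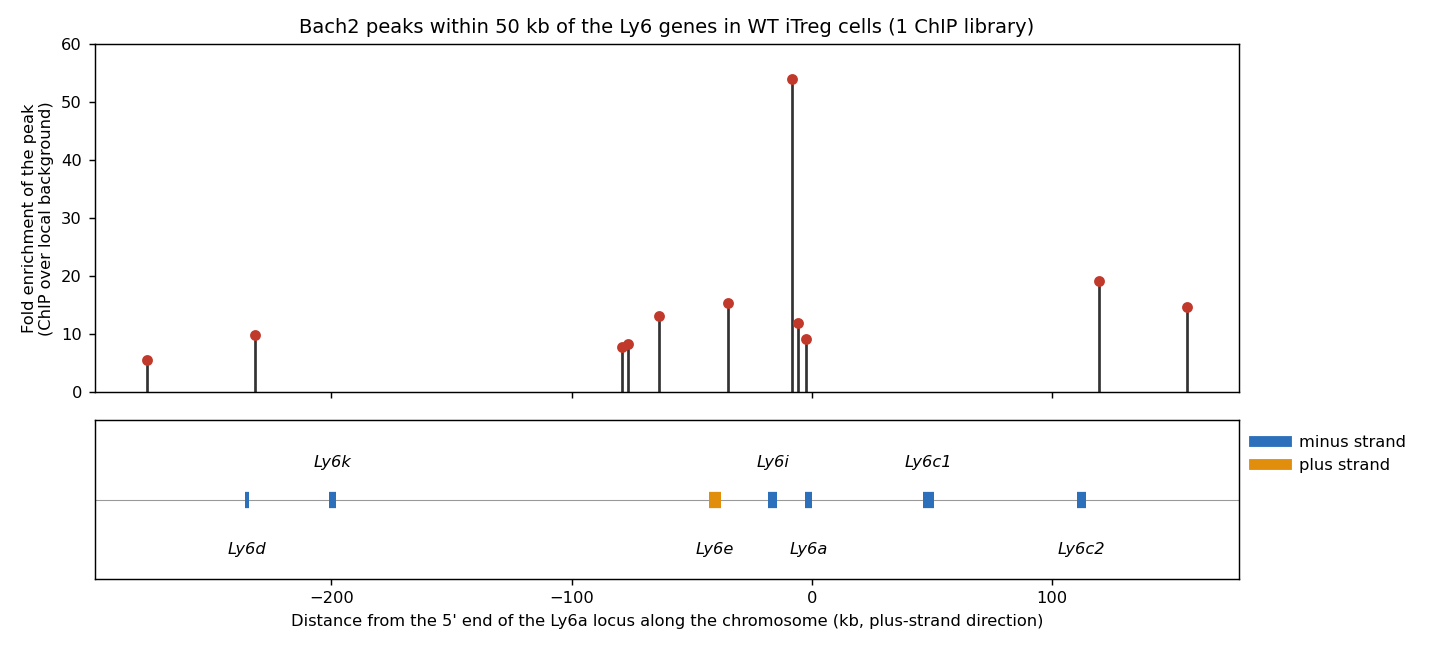
Fold enrichment of each of the 11 Bach2 peaks (upper panel) and the 7 loci (lower panel) against distance from the 5′ end of Ly6a, in kb along the chromosome. The 53.9-fold peak stands between Ly6i and Ly6a, and all other peaks are at 19.2-fold or less.

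Across the 6 conditions, the loci with the most similar pattern to each member were found by the root mean square difference of log2(FPKM + 0.5), centred on each locus, over 11498 loci. The measure includes the Bach2KO condition and is a description. For Ly6a the closest were Plac8 (0.99), Ly6i (0.99) and AA467197 (1.25), and for Ly6i they were AA467197 (0.36), Sema7a (0.79) and the chemokine gene Ccl4 (0.94). Plac8 was at 192 FPKM in Bach2KO and 0.596 FPKM in WT iTreg cells, with 86.7 in Th1, 0.0943 in Th2, 37.9 in Th17 and 0.481 FPKM in naive cells. Ly6c1 was closest to Ly6c2 (1.01), then Zbp1 (1.43) and Lgals3bp (1.47). Ly6c2 was closer to the nucleic acid sensor gene Zbp1 (0.71), Crtam (0.84) and the transcription factor gene Irf1 (0.86) than to Ly6c1. For Ly6e the closest were Osbpl5 (0.35), the interferon-inducible GTPase gene Ifi47 (0.39) and Mettl7a1 (0.39). For Ly6k they were 4632428N05Rik (0.10), Ppp2r5b (0.16) and Tcf12 (0.16), and for Ly6d Pgpep1l (0.38), Gm16157 (0.38) and Cyp1a1 (0.39). Only Ly6a and Ly6c1 thus had another member among their 3 closest loci.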

How the data were processed

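Expression files hold FPKM values made by the authors with TopHat and Cufflinks from unique 50-base reads on mm9, per the labels' protocols. Per the file headers the values are FPKM, while the file extension names RPKM. Tool versions and the annotation are not stated in the sources used. The peak list was made with MACS 1.4.0beta from 8992019 ChIP tags and 9999999 input tags at a p-value cutoff of 1e-05, per the file headers. Each peak's tag count, its score (10 times the −log10 p-value), its fold enrichment over local background and its FDR in percent are deposited values, per the file headers. Alignment used Bowtie, per the submitters' processing notes.

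Bach2KO and WT iTreg libraries entered 1 linear model in limma 3.58.1 (R 4.3.3; lmFit, eBayes with trend) on log2(FPKM + 0.5). Loci needed a 6-library mean of 0.5 FPKM or more. The scale understates changes near 0 FPKM. p-values are two-sided and adjusted over all 11403 loci by Benjamini-Hochberg. In the iTreg libraries 72 loci had a failed estimate and were left out. The fit was tested on simulated data. Implied reads come from the deposited bounds, taken as 2 Poisson SD from the value, and like the bounds cover counting error only. Sequences, motifs and exon windows were read from the mm9 genome with Python 3.11.15, strands from its annotation, and alignments were local (Biopython 1.88). Members, lists and motifs were chosen with earlier results of these data known. Named genes are the members, Bach2, all tested relatives and the 3 loci most like each member. From each other list come up to 4 called genes by smallest adjusted p and up to 3 not called by level. Isg15, Ifit1, Ifng, Ifitm1, Ifitm3, Stat2, Bst2, Isg20 and Irf9 were named after their values were seen. So were the 4 interferon genes that fell, the untested interferon genes, the untested relatives, lineage factors and marker genes. Of the listed B cell markers, 1 is not reported here. Alternatives tried were other pseudocounts, filters, scalings, variance settings, a replicate block, leaving out each library, and other peak windows and thresholds.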

Additional observations from a re-analysis of the deposited data

How the results depend on the processing

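Without the filter on low values, 4 of 18 relatives tested were called (22.2%, against 52.3% of all loci), in place of 2 of 3. Within 10 kb of a member there were 6 Bach2 peaks, and 6 peaks within 50 kb had at least 10-fold enrichment, in place of 11. No member's difference changed sign under any alternative run. Leaving out each iTreg library in turn gave 7696 to 8587 loci called of all tested, 31 to 33 interferon genes, 17 to 20 GPI anchor genes and 2 relatives. The log2 difference then ranged from 6.50 to 6.68 for Ly6a, 5.34 to 5.65 for Ly6i, 4.04 to 4.34 for Ly6c1, 2.38 to 2.54 for Ly6c2, 1.77 to 1.86 for Ly6e, -0.66 to -0.01 for Ly6k and -2.94 to -1.48 for Ly6d. With equal sums of FPKM it was 6.30 for Ly6a and 1.55 for Ly6e.

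The labels do not say whether libraries with the same replicate number form a pair. Over 11403 loci, deviations of same-numbered libraries correlated at -0.04, -0.04 and 0.01, which cannot settle whether the samples were paired. A fit with the replicate number as a block called 7836 loci in place of 8510, 30 interferon genes, 17 GPI anchor genes and 2 relatives. With the block the Ly6k difference stayed at -0.31 and its SE fell to 0.0882. Depth limits several values that rest on 10 implied reads or fewer: Ly6i in WT iTreg, Th2 and naive cells, Ly6c1, Ly6c2 and Ly6k in Th2 cells, and Ly6d in Th1, Th2 and naive cells.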
